A study of Mus musculus with 4 samples.

Results

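Immunoglobulin light chain variable (V) segments were taken as all rows of the gene count table whose symbol begins with Igkv or Iglv. These were 163 of 53819 gene symbols, of which 160 belonged to the kappa locus and 3 to the lambda locus. The study compared wild-type C57Bl/6 mice given 3% DSS (dextran sulfate sodium, which damages the lining of the colon when given in drinking water) with mice given water. Each group had 2 bulk RNA-seq libraries, all carrying the label D6, and the labels name the material as primary colonic eosinophils. The sources used here do not give the age or sex of the mice, how the cells were isolated, or whether a library came from 1 mouse or a pool. Values of a group are given in the order replicate 1, replicate 2.

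Each B lymphocyte builds its light chain gene by joining 1 V segment to a short joining (J) segment upstream of a constant gene, either at the kappa or at the lambda locus. The joined V segment then supplies most of the antigen-binding part of the light chain, so the set of V segments in an RNA sample reports which rearranged genes its B lineage cells transcribe. Plasma cells, the antibody-secreting end stage of that lineage, are abundant in the colonic lamina propria and transcribe these genes at very high levels, whereas eosinophils do not rearrange them. At the mouse kappa locus, a V segment in the same orientation as the J segments joins by deletion of the DNA between them, and a V segment in the opposite orientation joins by inversion.

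All 163 segments matched GENCODE vM21 on GRCm38 by symbol. The annotation gives 103 as V genes (100 kappa and 3 lambda) and 60 as V pseudogenes. The kappa segments lie on chromosome 6 between 67555497 and 70704177, upstream of Igkj1 (70722562 to 70722599, plus strand), and the lambda segments on chromosome 16 between 19085017 and 19260859. Of the kappa segments, 75 lie on the plus strand like the J segments and 85 on the minus strand. Each V gene consists of a leader exon and a V exon. Segments of 1 family resemble each other closely. Among the 103 V genes, 78 shared at least 1 stretch of 50 bases with another segment, and in 15 more than 50% of such stretches were shared, so reads of close relatives may have been divided between them in an unknown way.

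The coding sequences of Igkv1-110 (chromosome 6, 68270485 to 68271267, plus strand) and Igkv1-117 (68121046 to 68121827, plus strand) are printed because these segments had the largest differences in share between the groups. The last 300 bases of each, from the GENCODE vM21 transcripts, run 5′ to 3′ to the end of the germline V segment. Capitals mark differing bases. Over the whole coding sequence they differ at 10 of 359 bases (97.2% identity).
Igkv1-110: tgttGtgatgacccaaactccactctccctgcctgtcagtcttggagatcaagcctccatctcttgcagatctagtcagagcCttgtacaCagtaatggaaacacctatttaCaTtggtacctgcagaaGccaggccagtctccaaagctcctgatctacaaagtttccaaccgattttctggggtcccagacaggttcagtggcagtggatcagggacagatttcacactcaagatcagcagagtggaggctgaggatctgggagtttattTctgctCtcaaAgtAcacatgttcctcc
Igkv1-117: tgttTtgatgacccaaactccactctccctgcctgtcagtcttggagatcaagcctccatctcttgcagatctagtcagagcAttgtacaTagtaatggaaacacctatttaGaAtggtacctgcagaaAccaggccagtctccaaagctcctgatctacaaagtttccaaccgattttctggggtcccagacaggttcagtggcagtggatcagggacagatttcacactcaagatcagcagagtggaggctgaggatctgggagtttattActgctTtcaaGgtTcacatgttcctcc
Of their stretches of 50 bases, 50.9% (Igkv1-110) and 49.9% (Igkv1-117) occurred in another segment, and each is the other's closest relative. The pair is therefore also given as a sum.

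The most abundant lambda segment, Iglv1 (chromosome 16, 19085017 to 19085500, minus strand), and its relative Iglv2 (19260401 to 19260859, minus strand) form a second such pair. They differ at 11 of 351 bases (96.9% identity), and the last 300 are shown in the same way.
Iglv1: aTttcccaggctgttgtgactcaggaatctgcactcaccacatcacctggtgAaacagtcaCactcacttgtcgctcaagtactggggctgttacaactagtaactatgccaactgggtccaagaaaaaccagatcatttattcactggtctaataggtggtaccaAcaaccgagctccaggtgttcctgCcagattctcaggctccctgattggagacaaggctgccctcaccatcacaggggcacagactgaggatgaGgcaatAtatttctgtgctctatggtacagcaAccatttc
Iglv2: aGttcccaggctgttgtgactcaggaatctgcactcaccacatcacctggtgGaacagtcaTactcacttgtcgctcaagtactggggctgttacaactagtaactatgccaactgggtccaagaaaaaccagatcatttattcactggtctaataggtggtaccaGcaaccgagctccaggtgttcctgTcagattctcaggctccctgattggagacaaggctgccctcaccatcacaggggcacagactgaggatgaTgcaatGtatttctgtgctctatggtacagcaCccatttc
For Iglv1 22.2% and for Iglv2 24.0% of the stretches of 50 bases were shared.

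The 3′ ends of the other segments that the results turn on are shown because this stretch codes for germline residues of the antigen-binding loop that spans the joint. Capitals run from the last in-frame TGT or TGC codon, the conserved cysteine at which the third hypervariable loop begins, to the end of the germline coding sequence. What follows in a rearranged gene comes from the joint and the J segment.
Igkv10-96: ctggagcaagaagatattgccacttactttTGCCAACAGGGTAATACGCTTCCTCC
Igkv5-48: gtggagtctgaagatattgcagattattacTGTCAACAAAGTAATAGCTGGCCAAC
Igkv17-127: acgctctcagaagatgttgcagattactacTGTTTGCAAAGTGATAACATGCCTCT
Igkv17-121: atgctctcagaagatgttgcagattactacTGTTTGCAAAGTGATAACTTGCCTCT
Igkv6-15: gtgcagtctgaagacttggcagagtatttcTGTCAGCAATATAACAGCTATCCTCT
Igkv6-23: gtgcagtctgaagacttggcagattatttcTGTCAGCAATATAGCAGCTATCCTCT
Igkv1-135: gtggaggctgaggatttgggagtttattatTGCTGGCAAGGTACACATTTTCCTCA
Iglv3: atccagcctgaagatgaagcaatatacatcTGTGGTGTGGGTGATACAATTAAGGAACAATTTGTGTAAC
Igkv14-126: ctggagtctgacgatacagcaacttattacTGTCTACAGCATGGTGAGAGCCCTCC
Igkv4-70: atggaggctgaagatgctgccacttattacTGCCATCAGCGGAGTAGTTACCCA
Igkv6-14: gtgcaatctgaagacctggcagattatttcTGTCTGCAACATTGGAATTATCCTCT
Igkv8-21: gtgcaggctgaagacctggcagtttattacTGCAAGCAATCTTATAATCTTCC
In most of the kappa segments shown 26 bases lie in capitals, and 40 do in Iglv3, which was only 52.7% identical to its closest relative among the members.

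Total counts per library ran from 30985905 to 34126329. Light chain V segments took 4.24% and 1.11% of all counts in the DSS libraries and 1.03% and 1.01% in the water libraries, or 1398718 and 378178 reads against 330350 and 311499. DSS replicate 1 thus stood far above the other 3 libraries, and DSS replicate 2 only slightly above the water libraries. The groups differed by 1.65 percentage points in mean (2.67 ± 2.21% in DSS, 1.02 ± 0.0182% in water, SD, n = 2 each). An exact two-sided permutation test over libraries gave p = 0.333, the smallest p that 2 libraries against 2 allow. Without DSS replicate 1 the difference was 0.0900 points, and without DSS replicate 2 it was 3.22 points. Exact (Clopper-Pearson) 95% intervals of these percentages were at most 0.0137 points wide and, like all intervals here, cover counting error only.

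Relative to Jchain and Igkc, the V segments overlapped between the groups. Against Jchain, which links secreted IgA and IgM into polymers, there were 1.52 and 1.58 light chain V reads per Jchain read in DSS and 1.53 and 1.69 in water. Kappa V reads per read of the constant gene Igkc (chromosome 6, 70726435 to 70726966) were 0.540 and 0.586 in DSS and 0.476 and 0.589 in water, which overlap. Lambda V reads per read of the Iglc genes did not overlap, at 1.08 and 1.12 in DSS and 0.774 and 0.960 in water (exact permutation p = 0.333). The 10 plasma cell markers, Jchain among them, all had reads. They summed to 37142 and 8030 CPM (counts scaled to a common library total after TMM adjustment) in DSS and to 7376 and 6361 CPM in water. Most of each sum was Jchain, with 33925 and 6765 CPM in DSS and 6342 and 5362 CPM in water. Tnfrsf17, Slamf7 and Cd38 overlapped between the groups, and Cd38 was lowest in DSS replicate 1. The other markers were higher in both DSS libraries, as were 20.8% of all tested genes. Whether more plasma cells or more RNA per cell lies behind a higher level cannot be told apart in bulk RNA.

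Summed markers of the labelled cell type were low beside the sums of plasma cells and epithelium. These sums combine unlike genes, and most of the plasma cell sum was Jchain, so they do not measure cell numbers. In DSS replicate 2, Tnfrsf17, Mzb1 and Slamf7 had 7.69, 12.1 and 39.3 CPM. These lay below Ccr3 (66.5 CPM), and the other plasma cell markers lay above it. The eosinophil markers Siglecf, Ccr3, Il5ra, Epx and Prg2 summed to 46.6 and 124 CPM in DSS and to 2.53 and 28.2 CPM in water. Epx, which encodes eosinophil peroxidase, had 0 and 12 reads in DSS and 0 and 14 reads in water. Ccr3 had 542 and 2350 reads in DSS and 4 and 413 in water, and Siglecf 299 and 1269 against 28 and 419. Prg2 had 319 and 300 reads in DSS and 54 and 26 in water, and Il5ra 99 and 452 against 0 and 100. The 5 epithelial markers summed to 2309 and 5567 CPM in DSS and to 6103 and 3927 CPM in water, the lowest of these in DSS replicate 1. The 5 neutrophil markers summed to 981 and 1023 CPM in DSS against 39.1 and 77.0 CPM in water, and the 6 T cell markers to 105 and 55.2 CPM against 22.9 and 59.7 CPM. These T cell sums overlapped through 1 abundant marker, while 5 of the 6 were higher in both DSS libraries, against 20.8% of all tested genes. Among the neutrophil markers Ly6g overlapped between the groups. DESeq2 called 4 of the 6 T cell markers and 4 of the 5 neutrophil markers higher, against 1.64% of all genes with an adjusted p. It also called 1 of the 10 plasma cell and 1 of the 5 eosinophil markers higher, and no epithelial or germinal centre marker. The 5 germinal centre markers summed to 77.2 and 49.6 CPM in DSS and to 33.8 and 75.7 CPM in water, lowest in water replicate 1. The sums other than those of germinal centre markers move with the groups or with DSS replicate 1. The part of all these cell types in the results on V segments was not tested.

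Of the 163 segments, 102 passed the filter on low counts and entered the comparison of DSS with water over 18788 genes, 97 V genes and 5 pseudogenes. In the fit with all libraries 98 of the 102 had a log2 fold change above 0, where 49.2% of all tested genes did, and their median was 1.88 against -0.01 over all tested genes. edgeR's quasi-likelihood test called none of them after Benjamini-Hochberg adjustment over all genes (lowest adjusted p = 0.35, Igkv6-14), and it called 0% of all genes higher and 0.016% lower. At an unadjusted p under 0.05 it had 49 of the 102 segments higher and 0 lower, against 5.06% and 3.39% of all genes. limma-voom called 0 segments and 0% of all genes in either direction. DESeq2's Wald test called 32 of 104 segments higher at an adjusted p under 0.05, all of them V genes, and 0 lower, against 1.64% and 0.89% of all genes with an adjusted p.

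These counts depended on DSS replicate 1. It was the highest library for 97 of the 102 segments, whereas DSS replicate 2 lay above both water libraries for 50 and below both for 18. Both DSS libraries exceeded both water libraries for 50 segments, against 20.8% of all genes, and 1 segment showed the opposite, against 18.7%. Without DSS replicate 1 the median log2 fold change became 0.38, with 68 of 105 segments above 0, against 46.8% of all genes, and DESeq2 called 4 higher, against 0.45% of all genes higher and 0.523% lower. DESeq2 called 71 segments higher without DSS replicate 2, against 2.08% of all genes higher and 1.21% lower. It called 14 without water replicate 1, against 0.771% and 0.177%, and 37 without water replicate 2, against 3.55% and 1.07%. When library size was set to the summed light chain V reads, so that each segment was measured within the repertoire, the median was 0.25, 63 of 101 segments lay above 0 against 9.13% of all genes, and edgeR called 0 segments, against 0.0164% of all genes higher and 0.0821% lower. That scaling moved the median of all genes to -0.92. Without a count filter edgeR called 72 segments higher, against 2.56% of all genes higher and 1.23% lower, and with the crossed replicate block it called 4, against 0.154% and 0.0798%. The segment-wise ratio of DSS replicate 1 to water had a median of 7.02 (replicate 1) and 6.25 (replicate 2), and that of DSS replicate 2 had 1.58 and 1.25.

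**Figure D1:**
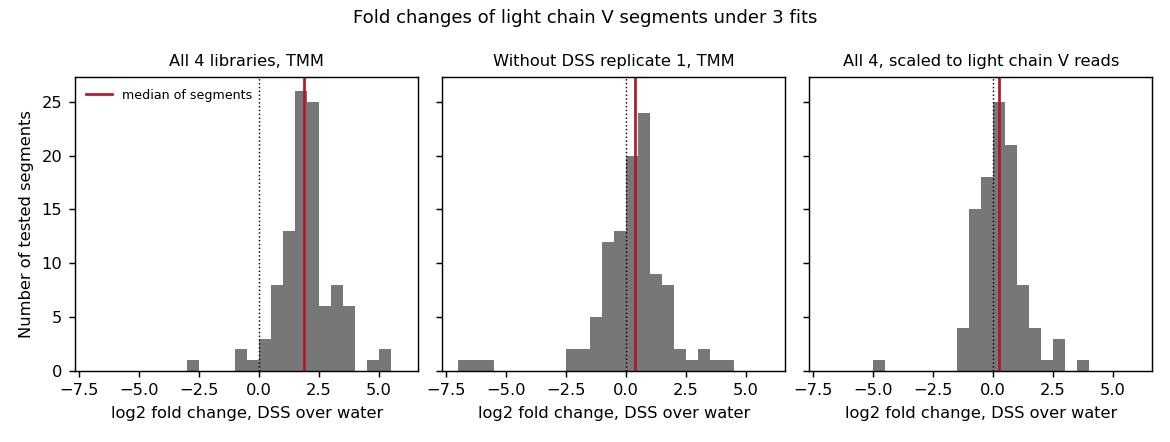
Histograms of the log2 fold change (DSS over water, x axis) of the tested light chain V segments (number of segments, y axis) in 3 fits, with the median as a red line and 0 as a dotted line. The median is 1.88 with all libraries, 0.38 without DSS replicate 1 and 0.25 when libraries are scaled to their light chain V reads.

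The 4 segments that DESeq2 called with all libraries and without each library in turn were Igkv14-126, Igkv4-70, Igkv6-14 and Igkv8-21, singled out after their values were seen. Igkv14-126 (chromosome 6, 67896172 to 67896642, plus strand) had 457 and 97.0 CPM in DSS and 6.33 and 17.9 CPM in water, so the lower DSS library was above the higher water library. Its log2 fold change was 4.51 (SE 0.92, edgeR adjusted p = 0.401, DESeq2 adjusted p = 3.4e-09), 2.98 without DSS replicate 1 and 2.77 within the repertoire. None of its stretches of 50 bases occurred in another segment. Igkv4-70 (69267888 to 69268443, minus strand) had 648 and 189 CPM in DSS and 25.6 and 59.8 CPM in water, a log2 fold change of 3.29 (SE 0.74, edgeR adjusted p = 0.401, DESeq2 adjusted p = 3.9e-06) that was 2.13 without DSS replicate 1. Of its stretches, 63.9% were shared, most with Igkv4-59, so its level is uncertain.

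Igkv6-14 (70434952 to 70435476, minus strand) had 321 and 173 CPM in DSS and 55.9 and 53.4 CPM in water. As a share of light chain V reads it held 0.621% and 1.62% in DSS against 0.575% and 0.591% in water, so within the repertoire DSS replicate 2 stood apart rather than DSS replicate 1. Igkv8-21 (70314895 to 70315472, minus strand) showed the same order, with shares of 1.06% and 2.20% in DSS and 0.693% and 0.844% in water. Their log2 fold changes were 2.18 (SE 0.40) and 2.45 (SE 0.49), with DESeq2 adjusted p of 3.3e-05 and 1.7e-05 and edgeR adjusted p of 0.35 and 0.401.

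The segments with the largest fold changes by the naming rule, with at least 10 CPM in a group and both DSS libraries above both water libraries, were Igkv12-38, Igkv14-130, Igkv14-126, Igkv6-29 and Igkv14-100. Of these 5, picked by fold change in these same data, 3 belong to family 14, which has 4 of the 103 V genes. The other V gene of that family, Igkv14-111, overlapped between the groups in share. It held 2.18% and 2.62% of light chain V reads in DSS and 1.19% and 2.95% in water. Igkv12-38 had 102 and 2.74 CPM in DSS and 0.648 and 2.29 CPM in water, a log2 fold change of 5.15 (SE 1.69) that was 0.88 without DSS replicate 1. Igkv14-130 had 1147 and 668 reads in DSS and 0 and 63 reads in water, and its log2 fold change of 5.06 (SE 1.40) was 4.33 without DSS replicate 1. Igkv14-100 had 391 and 26.6 CPM in DSS and 20.1 and 16.5 CPM in water. Igkv6-29 had 22.3 and 2.46 CPM in DSS and 0.412 and 1.51 CPM in water. In Igkv12-38, Igkv6-29 and Igkv14-100 DSS replicate 1 carried most of the difference, and in Igkv14-130 both DSS libraries did. edgeR's adjusted p over these 5 ran from 0.401 to 0.535. No segment met the rule in the other direction.

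Within the repertoire a few segments held large shares in every library. Igkv10-96 (chromosome 6, 68631963 to 68632442, minus strand) was the most abundant by mean share, ahead of Igkv1-110, Igkv1-117, Iglv1 and Igkv5-48, and this order of means was the same in reads per base of annotated exon. Igkv10-96 held 12.0% and 8.19% of light chain V reads in DSS and 6.95% and 7.95% in water, so the groups did not overlap but DSS replicate 2 and water replicate 2 were close. It was the leading segment of both DSS libraries, and Igkv1-110 was that of both water libraries. In water replicate 2 the lead of Igkv1-110 was within counting error (24916 reads against 24759 for Igkv10-96), and in reads per base Igkv10-96 led there with 8.25% against 7.43%. In CPM, Igkv10-96 had 6203 and 876 in DSS and 676 and 718 in water, with a log2 fold change of 2.34 (SE 0.89, edgeR adjusted p = 0.572, DESeq2 adjusted p = 0.0151) that was 0.32 without DSS replicate 1.

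Igkv1-110 held 3.92% and 4.81% of light chain V reads in DSS and 11.3% and 8.0% in water. Igkv1-117 held 3.61% and 3.77% in DSS and 6.5% and 7.94% in water. Both segments were lower in both DSS libraries than in either water library. Together the near-identical pair held 7.53% and 8.58% in DSS and 17.8% and 15.9% in water. In CPM the direction depended on the fit. Igkv1-110 had 2028 and 514 CPM in DSS and 1097 and 723 CPM in water, a log2 fold change of 0.48 (SE 0.68, edgeR adjusted p = 0.902) that was -0.83 without DSS replicate 1 and -1.14 within the repertoire. Igkv1-117 had 0.75 (SE 0.71), -0.76 and -0.97 in the same 3 fits.

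**Figure D2:**
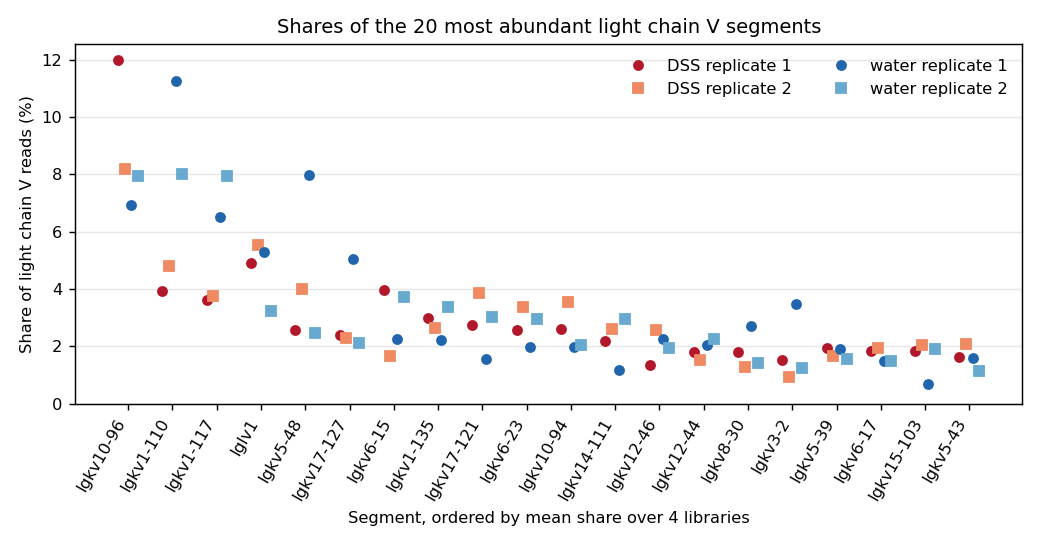
Share of light chain V reads (%, y axis) of the 20 segments with the highest mean share (x axis), with 1 point per library, DSS in reds and water in blues. Igkv1-110 and Igkv1-117 lie between 3.61% and 4.81% in the DSS libraries and between 6.5% and 11.3% in the water libraries.

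The other leading segments overlapped between the groups in share. Igkv5-48 held 2.56% and 3.99% in DSS and 7.98% and 2.45% in water. Igkv17-127 held 2.40% and 2.30% in DSS and 5.05% and 2.11% in water. Water replicate 1 alone was high for both of these segments. Igkv17-121, a close relative of Igkv17-127, held 2.76% and 3.86% in DSS and 1.54% and 3.03% in water, so that water replicate 1 was its lowest library. The pair summed to 5.16% and 6.16% in DSS and 6.59% and 5.14% in water, with overlapping groups. Igkv6-15 held 3.97% and 1.66% in DSS and 2.24% and 3.73% in water, and Igkv6-23 held 2.58% and 3.36% in DSS and 1.98% and 2.97% in water. Igkv1-135, another Igkv1 segment, held 2.99% and 2.63% in DSS and 2.20% and 3.38% in water.

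Over the 102 tested segments, the share of light chain V reads was higher in both DSS libraries than in both water libraries for 27 segments and lower for 9. The same measure over all 18788 tested genes gave 1.6% higher and 44.6% lower, beside the higher total of V reads in DSS replicate 1. In CPM, a different scale, 20.8% of all tested genes were higher in both DSS libraries and 18.7% lower. Among the 31 segments with a mean share of at least 1%, 7 were higher in share and 4 lower. These counts are near the percentages in CPM. Against the same measure over all genes they lie above the 1.6% higher and below the 44.6% lower. The higher ones were Igkv10-96, Igkv10-94, Igkv6-17, Igkv5-43, Igkv6-25, Igkv8-21 and Igkv4-91, and the lower ones Igkv1-110, Igkv1-117, Igkv12-44 and Igkv4-72, all named after their values were seen.

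By family, the largest difference in share was that of Igkv1. Its 13 segments held 11.4% and 12.0% of light chain V reads in DSS and 20.5% and 20.2% in water (11.7 ± 0.468% against 20.3 ± 0.219%, SD, n = 2 each). The difference was -8.64 percentage points, and the exact permutation p was 0.333, the smallest possible. It ran from -8.98 to -8.31 points when any 1 library was left out. Igkv1 was picked out of 23 families after their values were seen, and 2 libraries give a weak measure of spread. In water, Igkv1-110 and Igkv1-117 moved in opposite ways between the replicates, which the SD of the family hides. The difference sat in the pair described above. Without Igkv1-110 and Igkv1-117 the rest of the family held 4.14% and 3.76% of the remaining light chain V reads in DSS. In water it held 3.29% and 5.03% of them, so the groups overlap.

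Other families differed less. Igkv10, a family of 3 segments, held 14.7% and 11.8% in DSS and 8.96% and 10.04% in water. Igkv14 held 3.91% and 3.95% in DSS and 1.46% and 3.35% in water, where water replicate 1 was the low library. Igkv6 held 12.4% and 13.4% in DSS against 10.1% and 12.1% in water, and Igkv12 held 4.35% and 5.17% against 5.87% and 5.61%. Igkv4, with 33 segments the family of most members, overlapped at 15.02% and 15.7% in DSS and 10.7% and 16.4% in water. Of the 17 families with at least 1% in a group, 4 were higher and 2 lower in both DSS libraries and 11 overlapped. In CPM, 20.8% of all tested genes were higher and 18.7% lower in both DSS libraries. No family could pass an exact test with this number of libraries.

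**Figure D3:**
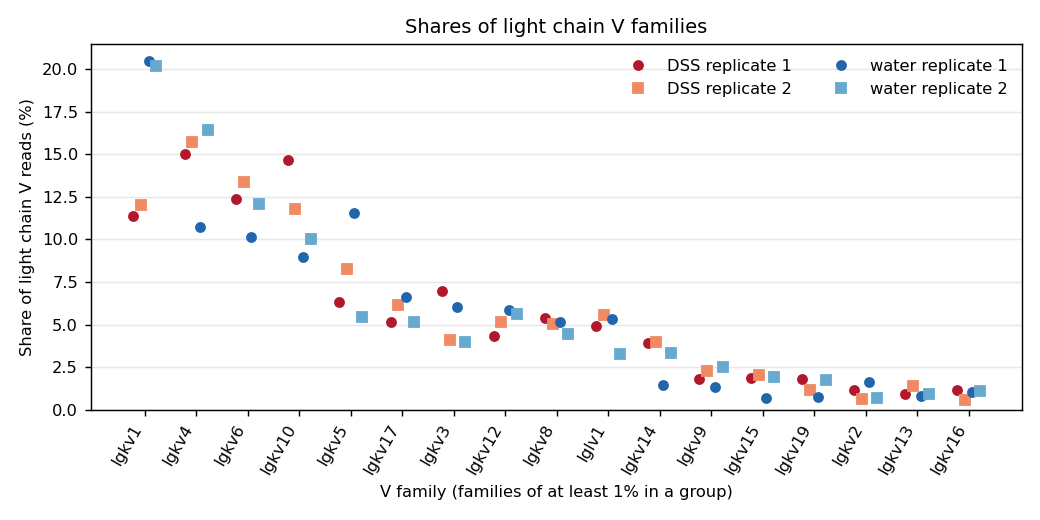
Share of light chain V reads (%, y axis) of each V family with at least 1% in a group (x axis), with 1 point per library, DSS in reds and water in blues. Igkv1 lies at 11.4% and 12.0% in DSS and at 20.5% and 20.2% in water, and in most other families the points of the groups overlap.

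Along the kappa locus the difference appeared as a shift away from the segments farthest from the J segments. Segments 2400 kb or more from Igkj1 held 23.5% and 26.1% of kappa V reads in DSS and 33.8% and 32.5% in water. Segments between 1600 and 2400 kb held 27.6% and 22.5% in DSS and 15.9% and 21.8% in water, and those within 800 kb held 26.5% and 24.2% in DSS and 22.7% and 21.6% in water. Between 800 and 1600 kb the groups overlapped, at 22.4% and 27.2% in DSS and 27.6% and 24.0% in water. The far end rested on the same pair, since without Igkv1-110 and Igkv1-117 its segments held 16.9% and 18.7% of the remaining kappa V reads in DSS and 18.4% and 19.0% in water.

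**Figure D4:**
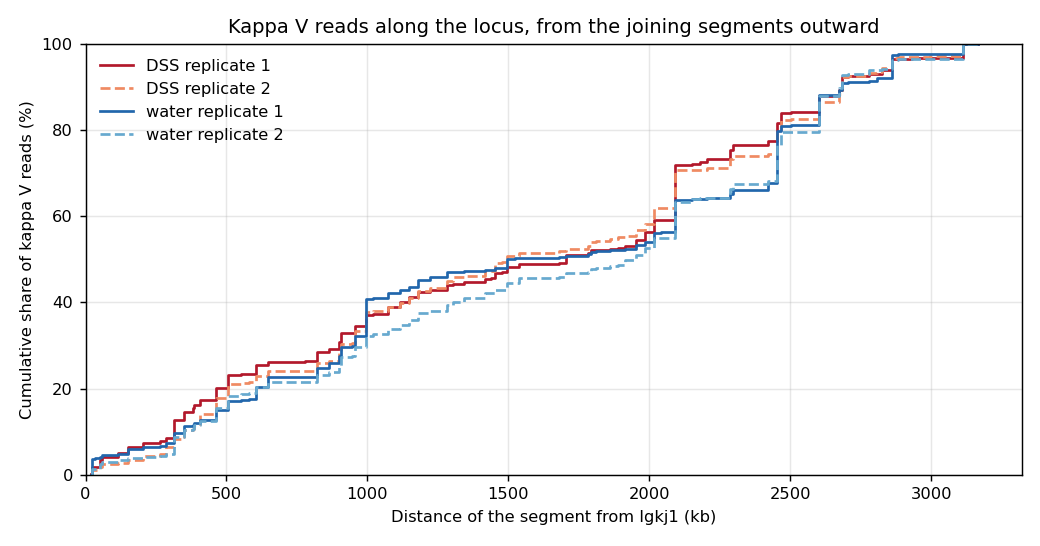
Cumulative share of kappa V reads (%, y axis) with distance of the segment from Igkj1 (kb, x axis), 1 line per library, DSS in reds and water in blues. Every step is a segment, and beyond 2400 kb the DSS lines have 23.5% and 26.1% of reads left to gain and the water lines 33.8% and 32.5%.

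Minus strand segments, whose joining inverts the DNA between V and J, held 61.2% and 61.8% of kappa V reads in DSS and 54.8% and 56.5% in water (61.5 ± 0.442% against 55.6 ± 1.22%, SD, n = 2 each). The groups did not overlap, and the exact permutation p was again 0.333. Of the 100 kappa V genes 62 are on the minus strand. Igkv10-96 is on the minus strand and Igkv1-110 on the plus strand. Without these 2 segments the minus strand held 58.3% and 61.6% of the remaining kappa V reads in DSS. In water it held 58.8% and 57.8% of them, so the groups overlap.

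Use of the segments was spread more evenly in the DSS libraries. The effective number of segments, the exponential of the Shannon entropy of the shares, was 49.1 and 49.9 in DSS and 37.6 and 46.6 in water (49.5 ± 0.605 against 42.1 ± 6.35, SD, n = 2 each, exact permutation p = 0.333). Water replicate 1 was the least even library, and without it the difference of 7.43 segments became 2.93, whereas without water replicate 2 it was 11.9. The 10 leading segments of each library held 41.9% and 42.3% of reads in DSS and 53.7% and 45.6% in water. Reaching 50% of the reads took 14 segments in both DSS libraries and 9 and 12 segments in the water libraries. Heavy chain V segments showed the same order of libraries, with effective numbers of 53.5 and 55.1 in DSS and 43.5 and 51.6 in water.

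**Figure D5:**
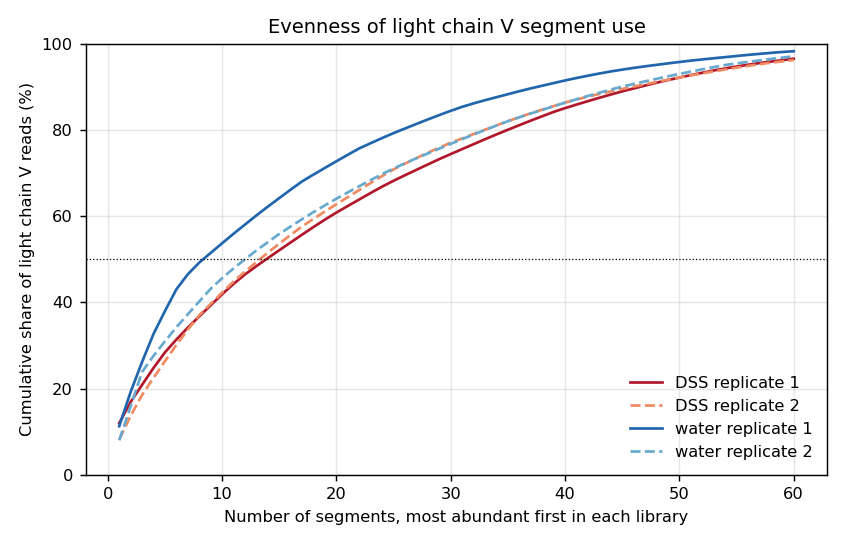
Cumulative share of light chain V reads (%, y axis) held by the most abundant segments of each library (number of segments, x axis), 1 line per library, DSS in reds and water in blues, with a dotted line at 50%. The DSS lines reach 50% at 14 segments and the water lines at 9 and 12.

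The replicates were not copies of each other. The Bray-Curtis distance between share profiles, the percentage of reads that would have to move to another segment, was 17.9% between the DSS libraries and 24.1% between the water libraries. Between groups it was 28.0% and 27.6% from DSS replicates 1 and 2 to water replicate 1, and 18.1% and 19.4% to water replicate 2. Water replicate 2 was therefore nearly as close to the DSS libraries as those were to each other, and water replicate 1 stood apart from all 3. Water replicate 1 also had the lowest germinal centre, eosinophil, neutrophil and T cell marker sums and the highest epithelial marker sum. The part of these cell types in its profile was not tested. Although DSS replicate 1 held far more light chain reads, its profile of shares was not the outlying one.

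The balance of kappa to lambda overlapped between the groups. Kappa segments held 94.2% and 93.9% of light chain V reads in DSS and 93.9% and 95.6% in water, a difference of -0.704 percentage points (exact permutation p = 1). The corresponding ratios of kappa to lambda reads were 16.2 and 15.3 in DSS and 15.3 and 21.8 in water, and only water replicate 2 stood apart. The sign of this difference turned when constant genes were counted in place of V segments. Igkc held 97.0% and 96.7% of Igkc plus Iglc reads in DSS and 96.1% and 97.3% in water.

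Iglv1 was the main lambda segment in every library. It held 84.9% and 90.3% of lambda V reads in DSS and 86.6% and 73.9% in water, while Iglv2 held 7.09% and 5.98% in DSS and 6.87% and 18.0% in water. Water replicate 2 was the library with the least Iglv1 and the most Iglv2. Iglv3 held 7.96% and 3.71% in DSS and 6.54% and 8.13% in water. In mouse, Iglv1 joins mainly to the J segments of Iglc3 and Iglc1, and Iglv2 and Iglv3 mainly to that of Iglc2. The constant genes ordered the libraries in the same way, with Iglc1 and Iglc3 together at 76.3% and 83.5% of Iglc reads in DSS and 79.2% and 60.2% in water. Exact 95% intervals of these lambda shares were at most 1.65 points wide.

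In CPM, Iglv1 had 2547 and 592 in DSS and 516 and 293 in water, with a log2 fold change of 1.96 (SE 0.75, edgeR adjusted p = 0.572, DESeq2 adjusted p = 0.0327) that was 0.55 without DSS replicate 1. Its share of light chain V reads, 4.92% and 5.53% in DSS against 5.31% and 3.24% in water, overlapped. Iglv2 had 213 and 39.2 CPM in DSS and 41.0 and 71.5 CPM in water, and Iglv3 had 239 and 24.3 CPM in DSS and 39.0 and 32.2 CPM in water. Apart from DSS replicate 1, neither was higher in DSS.

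Light chain V reads stood lower relative to heavy chain V reads in DSS. There were 1.23 and 1.16 light chain V reads per heavy chain V read in DSS and 1.55 and 1.42 in water, with no overlap (1.20 ± 0.0473 against 1.48 ± 0.0946, SD, n = 2 each, exact permutation p = 0.333). The median log2 fold change of the 103 tested heavy chain V segments was 2.05, beside 1.88 for the 102 light chain segments. Without DSS replicate 1 these medians were 0.50 and 0.38.

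The light chain constant and joining genes ranged with most V segments in the sign of their log2 fold change. Of 14 listed genes 11 were tested, and the 11 log2 fold changes were all positive (median 1.25), where 49.2% of all tested genes were. Neither edgeR nor DESeq2 called any. Of the 11, only Iglj3, with few reads, was higher in both DSS libraries, where 20.8% of all tested genes were. The others overlapped between the groups. For Igkc, DSS replicate 2 (17142 CPM) lay below water replicate 1 (19177 CPM). Igkc had 2441251 and 606129 reads in DSS and 651054 and 505557 reads in water, a log2 fold change of 1.67 (edgeR adjusted p = 0.674). The 14 genes of antibody assembly and secretion include the chaperone genes Hspa5 and Hsp90b1 and the transcription factor gene Xbp1. They likewise had positive log2 fold changes only, with a median of 0.80. Jchain, Mzb1, Hspa5, Dnajb9, Derl3, Xbp1 and Creld2 were higher in both DSS libraries, where 20.8% of all tested genes were. The others, Hsp90b1 among them, overlapped between the groups. edgeR and DESeq2 called none of them, and 1 was higher at an unadjusted edgeR p under 0.05, where 5.06% of all genes were. Xbp1, which drives the secretory programme of plasma cells, had 45092 and 18297 reads in DSS and 15985 and 15584 reads in water (log2 fold change 1.24, edgeR adjusted p = 0.665).

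Genes of light chain rearrangement itself had few or no reads. Rag1 and Rag2, the recombinase genes, and Igll1, a surrogate light chain gene of B cell precursors, had 0 reads in all 4 libraries. Of the 7 genes in this list only Vpreb3, which mature B lineage cells also express, was tested, at 26.0 and 9.19 CPM in DSS and 5.51 and 7.40 CPM in water (log2 fold change 1.45, edgeR adjusted p = 0.569).

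Nearly all V reads fell on V genes. Pseudogenes held 0.0822% and 0.162% of light chain V reads in DSS and 0.127% and 0.0549% in water. Of the 60 pseudogenes 46 had no read in any library, and Igkv4-77 held most pseudogene reads with 818 and 478 in DSS and 321 and 110 in water. In Igkv4-77 30.03% of the stretches of 50 bases were shared, most with Igkv4-54. Among the 103 V genes, 91 had reads in all 4 libraries and Igkv1-35 alone had none in any. A count of 0 allows a share of up to 0.000214% and 0.000793% in DSS and 0.000908% and 0.000963% in water.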

How the data were processed

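Raw counts per gene symbol were deposited by the authors, 1 column for each library. Aligners (HISAT2, STAR), counters (HTSeq, featureCounts), DESeq2 and the builds GRCm38 and mm10 appear in the submitters' processing notes, without versions or roles. The sources used here do not give the annotation. Poly-A RNA, per the labels' protocols, was reverse transcribed with random hexamers and sequenced on a NovaSeq X Plus, and strand is not stated. How reads across V to J joints or reads matching several V segments were counted is not given either. Between 70.5% and 73.2% of counts from 1 to 10 were even numbers in each library, so both mates of a pair may have been counted, which would make the intervals too narrow.

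Low counts were removed by filterByExpr (edgeR 4.0.16, minimum count 10, minimum total 15), and the rest were scaled by TMM and tested with glmQLFit (robust) and glmQLFTest under R 4.3.3, with group as the only term, over all 18788 genes kept. DESeq2 1.42.0 and limma 3.58.1 (voom) were alternatives. The SE of a log2 fold change is its absolute value divided by the square root of the F statistic of glmQLFTest. Levels are CPM on TMM-adjusted totals. Shares are reads of a segment over all Igkv and Iglv reads of the library, with exact (Clopper-Pearson) intervals and exact two-sided permutation tests over libraries. Coordinates, exon lengths and sequences come from GENCODE vM21, and Biopython 1.88 aligned coding sequences. Whether replicates are separate mice is not labelled. A p-value here thus reflects library-to-library spread, possibly technical only.

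Same-numbered libraries deviated from their group means with a correlation of -0.104 over tested genes, and nothing in the labels pairs them. The members and gene lists were chosen with earlier results of these data known, and 1 marker list is not reported here. Named segments were the 10 with the highest mean share, the lambda segments, the leading segment of each library, any called by edgeR, and up to 5 per direction with the largest fold change among those of at least 10 CPM whose groups did not overlap.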

Additional observations from a re-analysis of the deposited data

How the results depend on the processing

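The number of light chain V segments called, 0 with edgeR and all libraries, was 0 with DESeq2 size factors, upper-quartile scaling, library size set to light chain V reads, a filter of 1 CPM in 2 libraries or limma-voom. It was 72 without a count filter and 32 with DESeq2's Wald test, and the cause was not tested. Leaving out each library in turn gave between 0 and 3 calls with edgeR and between 4 and 71 with DESeq2. With the replicate number as a block the count was 0, and with the crossed pairing, chosen after seeing the data because the deviations of same-numbered libraries were negatively correlated, it was 4. The settings by reads per base, without single segments and with DESeq2 by library were also chosen after seeing the data. Every such call was higher in DSS.

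The kappa percentage differed by -0.704 points, by 0.158 with constant genes and by 0.245 without the most abundant kappa and lambda segment. When 1 library was left out, this difference ran from -1.57 to 0.165, so it has no stable sign. The differences in effective number, in light chain V percentage, in the Igkv1 family share and in the minus strand share kept their sign under the alternatives run, with sizes from 2.93 to 11.9 segments, from 0.09 to 3.22 points, from -8.98 to -0.213 points and from 1.67 to 6.74 points.

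For 7 named segments the sign of the log2 fold change turned both within the repertoire and without DSS replicate 1. Within the repertoire the values were -1.14 for Igkv1-110, -0.97 for Igkv1-117, -0.67 for Igkv5-48, -0.61 for Igkv17-127, -0.086 for Igkv6-15, -0.64 for Iglv2 and -0.14 for Iglv3. Over the fits that left out 1 library, with that without DSS replicate 1 always the lowest, they ran from -0.83 to 1.16, -0.76 to 1.47, -0.22 to 1.94, -0.47 to 1.92, -0.66 to 2.89, -0.54 to 1.92 and -0.56 to 2.75 in the same order. The number of libraries limits every comparison, and depth does not limit the leading shares. How far reads were divided between close relatives was not measured.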

Other observations

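Reads assigned to the Igkj segments, 2837 and 840 in the DSS libraries and 1274 and 706 in the water libraries, were few beside those of Igkc. Igkj2 held 18.0% and 23.0% of them in DSS and 14.6% and 16.7% in water (exact 95% intervals 16.6 to 19.5% in DSS replicate 1 and 14.0 to 19.7% in water replicate 2). Igkj5 held 25.8% and 25.5% in DSS and 28.9% and 26.3% in water. For both segments the interval of DSS replicate 1 overlapped that of water replicate 2, so the order of those libraries is within counting error. For Igkj2 the interval of DSS replicate 2 (20.2 to 26.0%) lay above those of both water libraries (12.7 to 16.7% and 14.0 to 19.7%).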
